A study of Mus musculus with 2 samples.

Results

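The cells described here are endothelial cells (ECs) of mouse femur and tibia that a marker rule named arterial. They were taken from single-cell RNA sequencing of bone cells that had been depleted of blood cells. A cell was a member if it had 500 to 6000 detected genes and under 25% mitochondrial transcripts, transcripts of at least 3 of the endothelial genes Cdh5, Pecam1, Kdr, Emcn, Tie1, Esam and Plvap, none of the leukocyte gene Ptprc, and transcripts of at least 2 of the arterial marker genes Gja5, Sema3g, Stmn2, Fbln2 and Jag2. Transcripts are counted as unique molecular identifiers (UMIs), 1 for each captured molecule. The rule found 2833 arterial ECs among 60748 cells of the series, 923 in the Control library and 1910 in the Dach1OE library. All ECs passing the endothelial part of the rule numbered 10937 and 11661.

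Each group was 1 library, and each library pooled bone cells of a pair of mice per the study's methods and of both sexes per the labels. All mice were C57BL/6, were analysed at postnatal day 30 and had received tamoxifen, which was given shortly after birth per the methods. The genotype label of the Control group is Dach1OE +/f, so these mice carried the overexpression allele without a Cre, and that of the Dach1OE group is Apj CreERT2 - Dach1OE +/f. In the latter a tamoxifen-activated Cre, driven by the gene of the apelin receptor (Aplnr, also called Apj), switched on Dach1 from the Rosa26 locus. The methods also name the R26-mT/mG reporter in this cross, which the genotype labels do not give. Aplnr is known as a gene of capillary and venous endothelium, and whether an arterial EC with the active transgene descends from such a cell or had Aplnr itself at the time of tamoxifen cannot be told apart here. As a group was a single library, the groups were not tested, and every interval below is a 95% interval of counting error only.

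Arteries of long bone enter through the cortex and branch into arterioles, which hand blood on to capillaries near the growth plate and trabecular bone and then to the wide sinusoids of the marrow. Arterial ECs are joined by gap junctions made of connexins, are held by a basement membrane and an elastic layer that takes up pulsatile flow, and depend on Notch signalling and SoxF transcription factors for their identity. Sinusoidal ECs carry scavenger receptors such as stabilins and the lymphatic growth factor receptor Flt4, and venous identity is tied to the nuclear receptor Nr2f2. The study distinguishes in bone the type H capillaries of the metaphysis and the type R capillaries, which follow on from arteries around trabecular bone.

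The tables held 28720 Control and 32028 Dach1OE cells with 143986818 and 166999989 UMIs. The members took 4058367 and 8395841 of these UMIs, and their median depth was 3507 and 3547.5 UMIs per cell against 3002 and 2972 in the other ECs. A total of 1049 cell barcodes occurred in both libraries, of which 2 belonged to members in both. The doublet caller Scrublet marked 11.4% of Control and 11.0% of Dach1OE members, which were kept.

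The genes of the rule are given first, as a description of how the members were chosen. In Control 52.4% of the members had only 2 of the 5 arterial markers, and in Dach1OE 31.5% did. All 5 markers were found in 96 Control members (10.4%) and 492 Dach1OE members (25.8%). Fbln2, an extracellular matrix protein, was the marker found most often, in 87.6% of Control and 77.9% of Dach1OE members. Gja5, which encodes the arterial gap junction protein connexin 40, was the rarest in Control at 31.6%, and was found in 62.1% of Dach1OE members. The other 3 markers, the guidance cue Sema3g, the microtubule regulator Stmn2 and the Notch ligand Jag2, were found in 64.6%, 44.7% and 56.7% of Control members. The members with 2 markers were mostly chosen without Gja5. In Control, 139 of them had Stmn2 with Fbln2, 137 had Fbln2 with Jag2 and 100 had Sema3g with Fbln2, whereas 11 had Gja5 with Sema3g. Of the endothelial genes, Emcn, a sialoglycoprotein of capillaries and veins, was found in 63.1% of Control and 41.1% of Dach1OE members. Plvap was found in 83.2% and 59.4%. The paper's protein staining took arterial ECs as negative for Emcn and type R ECs as positive. The name arterial in this report therefore follows the rule and also covers cells with Emcn transcripts.

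Arterial genes that the rule did not use are described next. Their list was made with earlier results of these data known, so this is no independent check of the label. Of the 11 genes on the arterial identity list, 5 are given here by marker number. Levels are UMIs summed over the cells of a set and scaled to 1000000 UMIs of that set (CPM). Gja4 (chromosome 4, 127311421 to 127314039 of GRCm38, minus strand), which encodes connexin 37, stood at 6.38 CPM in Control ECs with none of the 5 markers and at 21.2 CPM with 1 marker, just outside the rule. Just inside it, with 2 markers, the level was 102 CPM, and it was 493, 752 and 1056 CPM with 3, 4 and 5 markers. In Dach1OE the same series ran 30.2, 85, 393, 923, 1295 and 1578 CPM. Sox17, a SoxF factor, had 61.5 CPM with no marker and 526 CPM with 5 in Control, and 74.5 and 710 CPM in Dach1OE. Efnb2, the arterial ephrin ligand, went from 26.2 to 532 CPM in Control and from 25.7 to 326 CPM in Dach1OE. Hey1, a transcription factor switched on by Notch, went from 6.16 to 228 CPM and from 10.8 to 360 CPM. Bmx, a kinase of arterial endothelium, was the gene with the lowest levels of these, from 1.31 to 115 CPM in Control and from 0.697 to 40.3 CPM in Dach1OE. All 5 of these genes were higher with 5 markers than with 2 in either library.

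Genes of other vessels took different courses. The 14 sinusoidal and venous genes summed to 6919 CPM in other ECs of Control and to 2959, 1699.8 and 980.2 CPM with 2, with 3 and with 4 or 5 markers. The sum of the type R capillary list climbed instead, at 1108 CPM and then 1922, 3816 and 4718 CPM in Control. In Dach1OE it ran 970.0 and then 2782, 3971 and 5519 CPM. Cxcl12 and Cav1 made up 1475 and 900 of its 3108 CPM in Control arterial ECs. The type R genes Edn1, C1qtnf9, Aqp7, Fmo2 and Ntf3 alone did not climb with marker number in Control. They summed to 34.8 CPM in other ECs and then 253.7, 125.0 and 199.3 CPM. In Dach1OE these sums were 30.6, 175.3, 177.8 and 204.2 CPM. Stab2, a scavenger receptor of sinusoids, went from 777 CPM in Control ECs with no marker to 166 CPM with 2 markers and 54.3 CPM with 5. Nr2f2 had 684 CPM with no marker, 412 CPM with 2 and 69.5 CPM with 5. Aplnr, the gene that drives the Cre, differed in shape. It stood at 422 CPM with no marker, at 564 and 561 CPM with 1 and 2 markers, and then at 206, 74.8 and 43.5 CPM with 3, 4 and 5 in Control. Dach1OE gave 430, 556, 488, 148, 76.0 and 27.1 CPM. After every cell had been reduced to 1000 UMIs, an Aplnr UMI was found in 36.3% of Control members with 2 markers and in 2.78% of those with 4 or 5, and the shares without that reduction were 61.0% and 13.1%. In chondrocyte-type cells, which should lack Aplnr, 0.249% held one at 1000 UMIs and 1.77% at full depth, their median depth being 7521 UMIs.

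In Control the members with 2 markers were thus unlike the rest in several genes outside the rule. C1qtnf9, a secreted factor on the list of type R capillaries, had 88.8 CPM in Control cells with 2 markers against 22.1 CPM with 3 and 13.0 CPM with 5. The endothelial clotting factor gene Vwf had 188 CPM with 2 markers, 47.8 CPM with 3 and 36.9 CPM with 5 in Control. Lyve1, a receptor of lymphatic endothelium, had 102 CPM with 2 markers and no UMI with 3, 4 or 5. It came from 11 cells. In Dach1OE Aplnr was also higher with 2 markers than with 3, 4 or 5. The 5 lymphatic genes did not repeat the Control course there. They summed to 75.9, 202 and 12.3 CPM with 2, with 3 and with 4 or 5 markers. Of the members with 3 or more markers, 439 were in Control and 1308 in Dach1OE. Because the libraries differ in how many members had 2 markers, the medians of the vessel gene lists below, and the ratios of some genes, are given also by marker number or with equal weights of the cells with 2, with 3, and with 4 or 5 markers. This weighting was chosen after the data had been seen. It rests on values that chose the members, so cells of like marker number in the 2 libraries need not be alike.

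**Figure D1:**
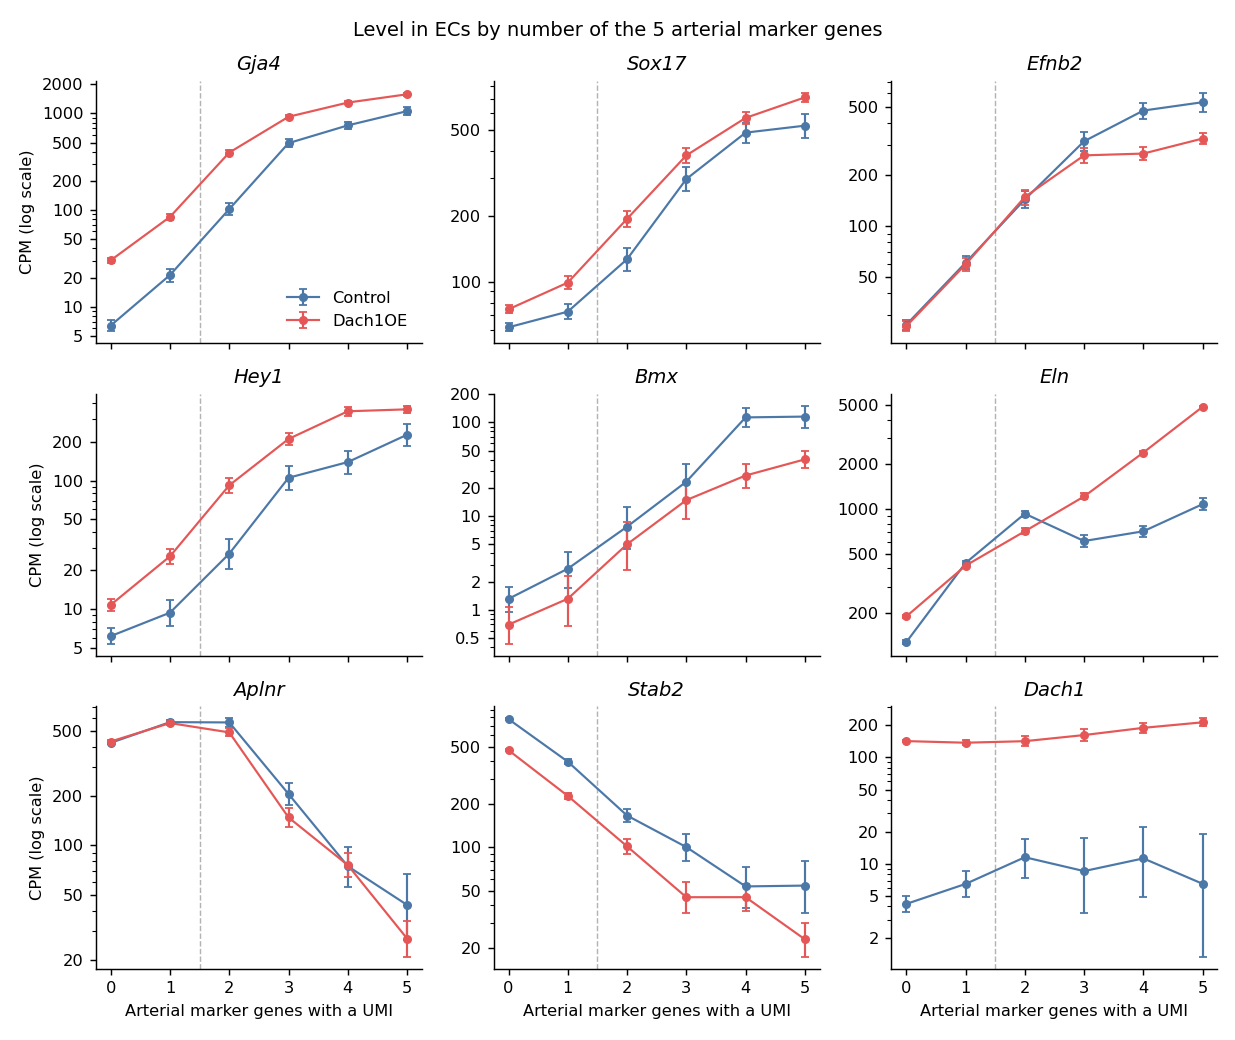
Levels in ECs, in CPM on log axes, by how many of the 5 arterial marker genes of the rule had a UMI (x axis), for 9 genes outside the rule in Control (blue) and Dach1OE (red), with 95% Poisson intervals as bars. The dashed line is the limit of the rule at 2 markers. Gja4, Sox17, Efnb2, Hey1 and Bmx climb with the number of markers, Stab2 goes from 777 to 54.3 CPM in Control, Aplnr is lower only past 2 markers, and Dach1 goes from 4.22 CPM with no marker to 11.6 CPM with 2 in Control and is above these levels at every number in Dach1OE.

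The start regions of these arterial genes are shown as reference sequence from RefSeq (GRCm38.p6), each from 250 bases before to 50 after a transcription start, 5′ to 3′ on the gene's strand. They are printed for Gja4 and Bmx, the genes of the arterial identity list below with the highest ratios of arterial over other ECs, and for the rule gene Gja5. Capitals mark TGGGAA (or TTCCCA on the other strand), the core letters bound by the Notch effector RBPJ, and ACAAT (or ATTGT), core letters bound by Sox factors. Gja4 is chr4:127313990-127314289 on the minus strand, Bmx is chrX:164258144-164258443 on the minus strand, and Gja5 is chr3:97032152-97032451 on the plus strand.
Gja4: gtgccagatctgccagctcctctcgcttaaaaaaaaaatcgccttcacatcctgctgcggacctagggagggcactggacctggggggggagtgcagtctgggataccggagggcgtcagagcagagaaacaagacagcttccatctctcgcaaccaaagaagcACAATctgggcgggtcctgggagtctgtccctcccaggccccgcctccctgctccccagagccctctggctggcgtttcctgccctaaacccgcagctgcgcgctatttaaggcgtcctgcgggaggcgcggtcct
Bmx: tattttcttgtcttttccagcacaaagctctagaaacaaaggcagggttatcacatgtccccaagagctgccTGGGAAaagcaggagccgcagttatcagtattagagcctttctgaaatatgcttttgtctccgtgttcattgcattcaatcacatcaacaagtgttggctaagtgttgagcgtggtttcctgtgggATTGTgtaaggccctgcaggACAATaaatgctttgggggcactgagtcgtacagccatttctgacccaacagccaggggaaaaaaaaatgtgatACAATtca
Gja5: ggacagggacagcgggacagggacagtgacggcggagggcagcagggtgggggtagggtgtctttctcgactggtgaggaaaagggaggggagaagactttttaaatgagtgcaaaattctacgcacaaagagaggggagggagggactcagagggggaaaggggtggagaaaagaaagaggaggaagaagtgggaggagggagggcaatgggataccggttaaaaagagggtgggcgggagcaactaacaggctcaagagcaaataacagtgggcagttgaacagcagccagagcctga
The Gja4 window holds 1 match of the Sox letters and none of the RBPJ letters. The Bmx window holds 3 of the former and 1 of the latter, and the Gja5 window holds neither. Over all 32851 promoter windows of the table, 25.6% hold the RBPJ letters and 31.0% the Sox letters. Of the 15 genes with the highest ratio of arterial over other ECs, named below, 14 matched a promoter entry. Their 21 windows include 5 with the RBPJ letters and 7 with the Sox letters. Such matches are a description of letters and no evidence of binding.

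Arterial ECs were next compared with the other ECs of the same library. A gene was called when the level differed at least 2-fold and the interval of the log2 ratio excluded 0. Genes with at least 50 summed UMIs were compared. Since the members were chosen by their transcripts, this is a description and no test. In Control 617 of 13625 genes (4.53%) were called higher and 673 (4.94%) lower in arterial ECs, and in Dach1OE 613 of 13715 (4.47%) and 826 (6.02%). Of 13379 genes compared in both, 361 (2.70%) were higher in both libraries and 416 (3.11%) lower in both.

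The list of arterial identity genes held 11 genes outside the rule, and 10 of them were called higher in both libraries. Their median log2 ratio was 2.92 in Control and 3.03 in Dach1OE, where the medians of all genes compared were −0.05 and −0.07. For Gja4 the ratio was 5.43 (5.26 to 5.59) in Control, and Dach1OE gave 4.59 (4.51 to 4.66). For Bmx the ratios were 4.69 (4.27 to 5.13) and 4.70 (4.16 to 5.29), and for Hey1 they were 3.65 (3.41 to 3.88) and 4.12 (3.98 to 4.26). Vegfc, a growth factor for lymphatic and coronary vessels, had 2.49 and 3.54. The exception was Nrp1, a co-receptor for semaphorins and VEGF, with 0.59 (0.52 to 0.66) and 0.17 (0.11 to 0.23). Of the 14 sinusoidal and venous genes 13 were called lower in both libraries, with medians of −2.46 and −2.42. Stab2 had −2.54 and −2.89. The one left was Ephb4, the venous partner of ephrin B2, at 0.09 and 0.03. Genes of the capillaries nearest to arteries were in part higher. Of the type R list 7 of 9 genes compared in Control and 7 of 11 in Dach1OE were called higher and none lower, with medians of 2.18 and 1.92. Of 8 type H genes 4 were called higher in Control, with a median of 0.98, while 2 were higher and 1 lower in Dach1OE, with a median of −0.02.

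Genes that sense flow or build caveolae, small pits of the cell membrane, were next in number, with 6 of 10 called higher in both libraries. Cav1, the coat protein of caveolae, stood at 900 CPM in Control arterial ECs while the rest of the ECs had 111 CPM, which gives 3.02 (2.96 to 3.09), and in Dach1OE the levels were 1226 and 185 CPM. Klf2, a transcription factor induced by laminar flow, had 1.30 and 1.23, and Nos3, the endothelial nitric oxide synthase, 1.67 and 1.38. Of 12 Notch pathway genes 5 were called higher in both. The ligand Dll4 had 1.1 and 1.37. Jag1, another ligand, had 1.13 (0.95 to 1.31) in Control and 2.66 (2.54 to 2.79) in Dach1OE.

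Matrix genes differed between the libraries in this comparison. Of 13 basement membrane genes 9 were called higher in arterial ECs of Control, with a median of 1.25, and 3 in Dach1OE, with a median of 0.54. Col15a1, which encodes a collagen of the outer basement membrane, had 2.39 (2.32 to 2.46) in Control and 0.69 (0.63 to 0.74) in Dach1OE. Both sides of its ratio differed. The other ECs stood at 123 CPM in Control and 233 CPM in Dach1OE, and the arterial ECs at 647 and 376 CPM. Of 17 elastic fibre genes 5 were called higher in both. Eln, the gene of elastin, had 2.16 (2.10 to 2.22) and 3.30 (3.26 to 3.33), and Fbln5, which helps elastin assemble, had 1.97 (1.88 to 2.05) and 4.11 (4.03 to 4.18). Ly6a, the stem cell antigen Sca1 that also marks arterioles in marrow, had 2.05 and 0.82, the other ECs standing at 396 CPM in Control but 889 CPM in Dach1OE.

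The genes with the highest mean ratio over both libraries were, in order, Gkn3, Car7, Mannr, Gja4, Fam107a, Bmx, Lrrc3b, Dkk2, Aif1l, Gm35167, Pi16, Ptprr, Ssu2, Egfl8 and Pllp. Gkn3 is a gastrokine gene known as a mark of arterial endothelium, and it stood at 13.8 CPM in arterial against 0.150 CPM in other ECs of Control and at 69.0 against 0.510 CPM in Dach1OE. Its log2 ratios were 6.52 (5.31 to 8.03) and 7.08 (6.44 to 7.80). Car7, a carbonic anhydrase, had 137 against 2.40 CPM in Control and 35.0 against 1.12 CPM in Dach1OE. Dkk2, a secreted modulator of Wnt signalling, had 77.9 against 2.30 CPM in Control and 29.7 against 1.86 CPM in Dach1OE. Among the lowest in arterial ECs were Sectm1a, Slfn14, Fgf23, Slc35d3, Gm29684, Rdh16, Madcam1, Ubd and Kcnj5. Of these only Ubd, a ubiquitin-like modifier, had over 100 UMIs in the arterial ECs of a library, and it stood at 86.2 against 708 CPM in Control and 43.7 against 393 CPM in Dach1OE.

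**Figure D2:**
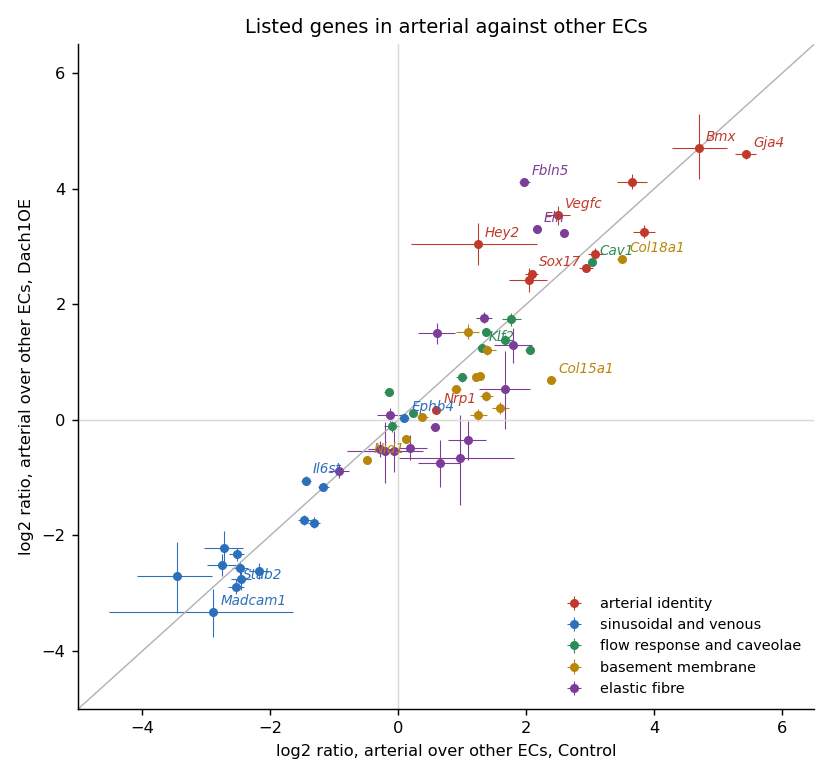
The log2 ratio of arterial over other ECs in Control (x axis) and in Dach1OE (y axis) for the genes of 5 lists with at least 50 UMIs in both libraries, with 95% counting intervals as bars and the line of equal ratios in grey. Arterial identity genes lie at the upper right with Gja4 at 5.43 and 4.59, sinusoidal and venous genes at the lower left, basement membrane genes mostly under the line, and Eln and Fbln5 above it.

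Among the other ECs, those closest to a known vessel type served for a nearer comparison. ECs with sinusoidal genes numbered 7214 and 5601, and ECs with genes of type R capillaries numbered 147 and 112. Against the type R set, Gja4 was higher by 4.48 on the log2 scale (3.55 to 5.61) in Control arterial ECs and by 4.69 (4.05 to 5.42) in those of Dach1OE, and Sox17 by 3.07 and 2.26. Cav1 was lower in arterial ECs than in this set, at −0.61 (−0.73 to −0.50) and −0.53 (−0.63 to −0.43), and Edn1, a vasoconstrictor gene that helped choose that set, at −1.43 and −0.98. Eln turned from −1.56 (−1.65 to −1.46) in Control to 0.37 (0.27 to 0.47) in Dach1OE. The levels behind this were 847 CPM in arterial and 2496 CPM in type R-gene ECs of Control, and 2388 and 1848 CPM in Dach1OE. Col15a1 had −0.03 (−0.19 to 0.14) in Control, an interval that includes 0, and −1.58 (−1.71 to −1.44) in Dach1OE.

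Among ECs the arterial share was 8.44% in Control (7.92 to 8.98) but 16.4% in Dach1OE (15.7 to 17.1), which is 7.94 percentage points higher in Dach1OE (7.09 to 8.79). The difference lay in cells with several markers. With 2 markers the shares were 4.43% and 5.16%, a difference of 0.737 points (0.179 to 1.29), whereas with 4 or 5 markers they were 2.30% and 8.15%, a difference of 5.84 points (5.28 to 6.42). Cells with all 5 markers went from 0.878% to 4.22%. ECs with exactly 1 marker, just outside the rule, made up 17.6% and 17.4%. Each library held cells of both sexes, told apart by Y-linked transcripts or by Xist, so the comparison could be made within either sex. If each pair of mice was 1 male and 1 female, this sets 1 mouse against 1 mouse. Arterial ECs made up 6.52% and 17.0% of ECs with Y-linked UMIs, and 9.55% and 16.2% of ECs with Xist. The share was thus higher in Dach1OE by 10.5 points (8.83 to 12.2) in the former and by 6.61 (5.06 to 8.15) in the latter. As bone digestion and bead depletion act before the count, these shares describe the libraries. With the rule applied to cells reduced to 1000 UMIs, which left 363 and 1018 members, the difference was 6.62 points. Among the cells with fewer than 2 UMIs of the mural and stromal lists, which left 105 and 134 members, it was 0.669 points (−4.30 to 5.55).

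**Figure D3:**
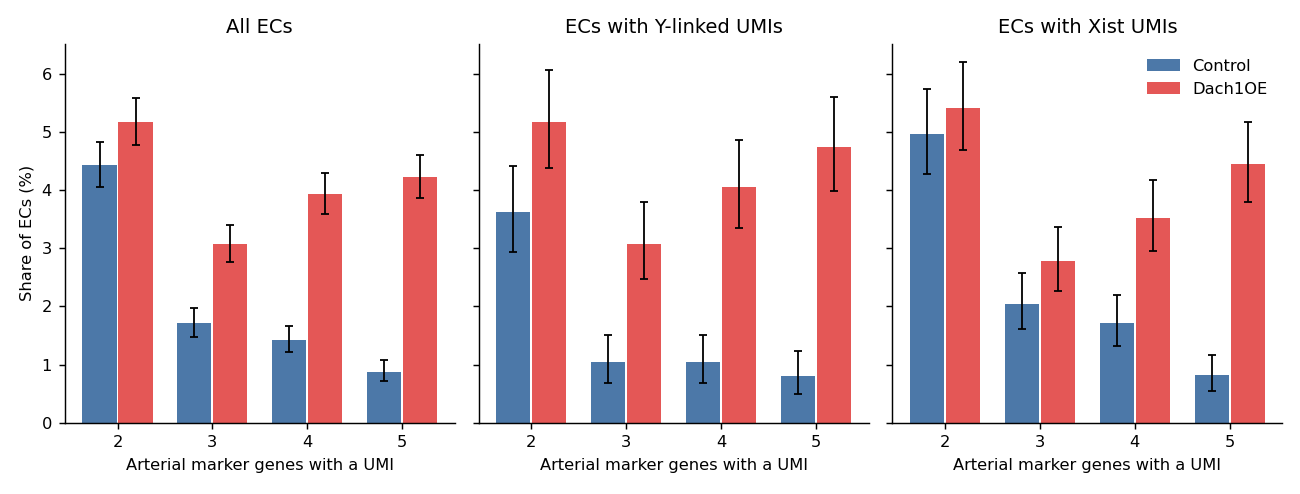
Share of ECs (y axis, in percent) with 2, 3, 4 or 5 of the arterial marker genes in Control (blue) and Dach1OE (red), for all ECs and for ECs with Y-linked or with Xist UMIs, with exact 95% binomial intervals as bars. With 2 markers the all-cell shares are 4.43% and 5.16%, and with 5 markers they are 0.878% and 4.22%. In the 3 panels the distance between the libraries is widest at 4 and 5 markers.

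Dach1 itself checks the labels. Dach1 (chromosome 14, 97786853 to 98169765 of GRCm38, minus strand) encodes a transcription cofactor with a part in coronary artery growth. It had 42 UMIs in Control arterial ECs and 1487 in Dach1OE arterial ECs, or 10.3 CPM (7.46 to 14.0) and 177 CPM (168 to 186), a log2 ratio of 4.10 (3.66 to 4.58). Reduced to 1000 UMIs per cell, 1.21% of Control members (0.606 to 2.15) and 16.7% of Dach1OE members (15 to 18.4) held a Dach1 UMI. The shares at full depth were 4.12% and 43.6%. In chondrocyte-type cells, with median depths of 7521 and 7852 UMIs, the reduced shares were 0.456% and 0.734%. Outside the arterial set Dach1 stood at 4.68 CPM in Control ECs and at 141 CPM in Dach1OE ECs, which gives 4.92, and the ratio in arterial minus that in other ECs was −0.82 (−1.31 to −0.33). Within Dach1OE the level was 142 CPM (138 to 147) in ECs with no arterial marker and 214 CPM (196 to 233) in those with 5. The transcript of the Rosa26 locus, Gt(ROSA)26Sor, moved in parallel, from 14.0 CPM in Control arterial ECs to 245 CPM in those of Dach1OE, with a ratio of 4.12 (3.74 to 4.53). In Dach1OE ECs it was 142 CPM with no marker and 344 CPM with 5.

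The 2 libraries' arterial ECs were compared over 11247 genes with at least 50 UMIs. In Dach1OE 238 genes (2.12%) were called higher and 298 (2.65%) lower. Of these, 155 (1.38%) and 139 (1.24%) were also at least 2-fold in the same direction within the cells of either sex. This used the ratio alone, without an interval or a minimum of UMIs in either sex. Cells with Y-linked UMIs only and with Xist only numbered 169 and 340 of 923 Control members. In Dach1OE they numbered 471 and 582 of 1910. The median of all genes was 0.02, and the shares of 2.12% and 2.65% are the reference for the list counts below. Among the 252 Control and 950 Dach1OE members with 4 or 5 markers alone, 382 genes were called higher, from fewer genes with enough UMIs. Their share of the genes compared is not given here, so 382 cannot be set against the 2.12%.

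Of the genes higher in Dach1OE in both sexes, several were almost silent in the arterial ECs of Control. Alox12e, a lipoxygenase gene, had 1 UMI in Control and 278 in Dach1OE, a log2 ratio of 7.07 (4.58 to 12.4). Vwa3a had 1 and 250 UMIs. Car4, a carbonic anhydrase that capillaries carry on their surface, had 1 and 183 UMIs, at 0.246 and 21.8 CPM. In the other ECs Car4 had 9 and 613 UMIs, at 0.225 and 15.6 CPM, so it was higher in both kinds of EC. Within the Dach1OE members Car4 stood at 52.0 CPM with 2 markers and 0.411 CPM with 5, and in the type R-gene ECs at 214 CPM. Among the members it was thus a transcript of those with few markers. Alox12e ran the other way, at 46.6 CPM with 4 or 5 markers against 33.1 CPM over all members. Rxrg, a retinoid receptor, was at 0 in Control and had 64 UMIs in Dach1OE. With Control set at 3 counts this gives 10.3-fold, which is a point value and is not itself a bound. The interval of the ratio has no upper end, as Control is at 0.

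A second group was present in Control arterial ECs at a low level. Slc1a3, a glutamate and aspartate transporter, had 21 UMIs in 16 Control cells and 969 UMIs in 437 Dach1OE cells, or 5.17 and 115 CPM, a log2 ratio of 4.48 (3.86 to 5.18). With 2 markers its ratio was 0.78, with 3 it was 3.49 and with 4 or 5 it was 5.86. In the other ECs it had 6.38 and 9.12 CPM. Wfdc1, a secreted protease inhibitor, had 6.90 and 123 CPM. For both genes the ratio in arterial ECs exceeded that in the other ECs, by 3.96 (3.30 to 4.63) for Slc1a3 and 3.23 (2.56 to 3.90) for Wfdc1. Scgb3a1, a secretoglobin, differed from them, since it was higher in both kinds of EC. It went from 2.22 to 72.1 CPM in arterial and from 11.3 to 373 CPM in other ECs.

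H19, an imprinted long noncoding RNA of growing tissue (chromosome 7, 142575529 to 142578143, minus strand), was the most abundant of the genes named as higher in Dach1OE. It had 891 UMIs in 70 Control cells and 15197 UMIs in 842 Dach1OE cells, or 220 and 1810.1 CPM, a log2 ratio of 3.04 (2.95 to 3.14). Of the Control UMIs 47.1% lay in 5 cells, and the log2 ratio of H19 moved with the choice of cells. By marker number it was 1.60, 2.68 and 3.72, without Scrublet doublets 3.99, with the rule at 1000 UMIs per cell 5.99, and without cells holding 2 or more mural or stromal UMIs 7.17 (5.81 to 9.05). In the other ECs it had 153 and 310 CPM, so that the ratio in arterial ECs was higher by 2.03 (1.92 to 2.13). Slc26a10, Plekhs1, Lsr and Gm9946 were also named by the rule, with log2 ratios of 4.74, 5.58, 3.59 and 3.93.

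Some of the genes lower in Dach1OE were higher in arterial than in other ECs of Control, and some were lower there. Car7, second among the genes that set arterial apart from other ECs, had 555 UMIs in Control and 294 in Dach1OE members, or 137 and 35.0 CPM, a log2 ratio of −1.97 (−2.17 to −1.76). With 4 or 5 markers it had 328 and 53.5 CPM, a ratio of −2.61. Ptchd1, Magix and Slc35f1 were of the same kind. Each of them stood under 3 CPM in the other Control ECs and lower in Dach1OE arterial ECs, with ratios of −2.60, −2.06 and −2.25. By contrast Gpm6a, Dnase1l3, Chst2, F8, Cd36 and Kcnj8 were higher in other than in arterial ECs of Control. Cd36, a fatty acid and scavenger receptor, had 284 and 79.8 CPM in arterial ECs, a ratio of −1.83 (−1.97 to −1.69), and 713 and 217 CPM in the remaining ECs, a ratio of −1.72. Tfpi2 and Rasa4 had −2.01 and −2.38. The UMIs of the remaining 3 lay in few Control cells. Arc had 66 UMIs in 12 Control cells, 54.5% of them in 1 cell. Mfap4 had 89.2% of its Control UMIs in 1 cell, and without the cell with most of its UMIs in each library its call was lost, as given with the elastic fibre genes. Adipoq, a gene of marrow stroma, had 666 UMIs in 64 Control cells.

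**Figure D4:**
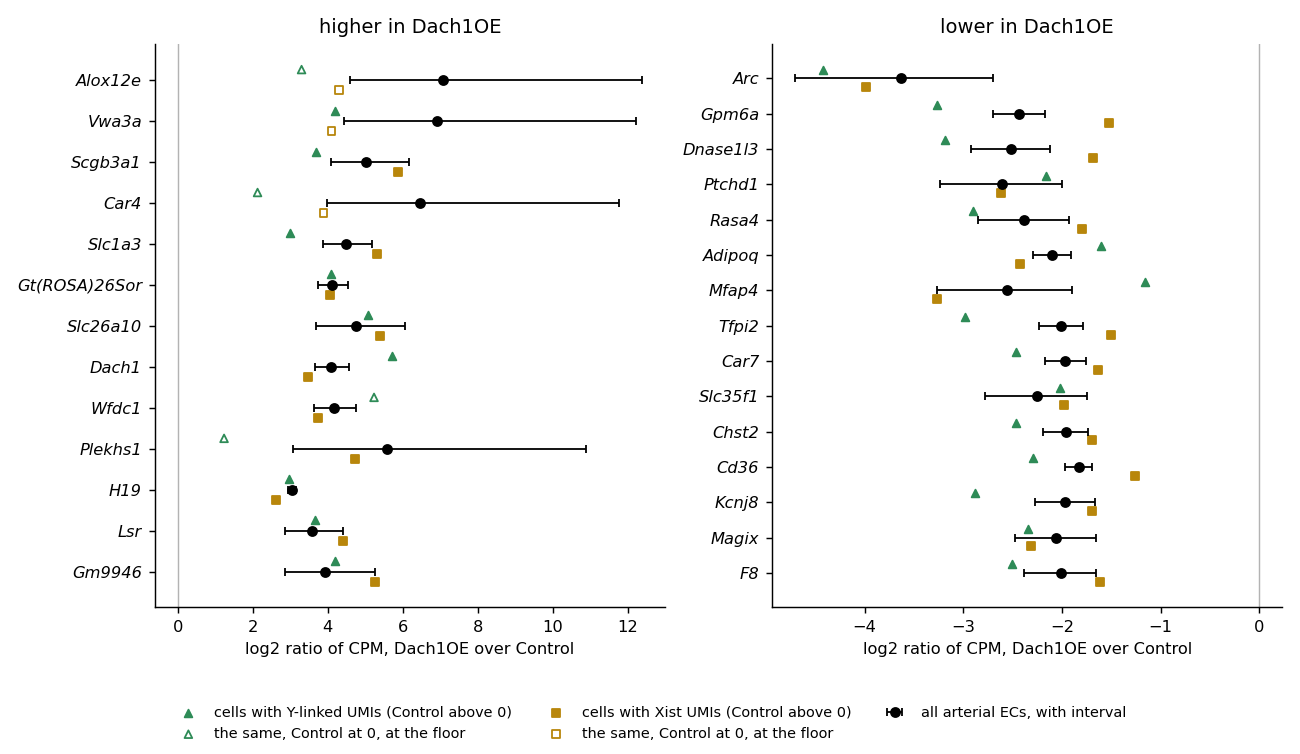
The log2 ratio of CPM in arterial ECs, Dach1OE over Control, for genes named by the rule as higher (left) and lower (right), in all arterial ECs with 95% counting intervals (black) and within cells with Y-linked UMIs (triangles) and with Xist UMIs (squares). Open symbols have Control at 0 set to 3 counts. Rxrg, at 0 in Control, is left out, and the genes shown are those reported in the text. Each symbol lies on the side of its panel's heading, as the choice of these genes required, and Dach1 sits at 4.10 in all cells.

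Of the 11 arterial identity genes 3 were called higher in Dach1OE and none lower, with a median log2 ratio of 0.51. Hey2, like Hey1 a Notch target that shapes arterial fate, had 12 UMIs in Control and 177 in Dach1OE, or 2.96 and 21.1 CPM, a ratio of 2.83 (1.99 to 3.81). Hey1 had 85.3 and 248 CPM, a ratio of 1.54 (1.38 to 1.71), and Gja4 402 and 1032 CPM, a ratio of 1.36 (1.28 to 1.44). These 3 were at least 2-fold higher in both sexes. The other 8 split in direction. Sox17 had 270 and 462 CPM, a ratio of 0.78, and Unc5b 0.51. Bmx had −0.92 (−1.23 to −0.61), Nrp1 −0.41 and Efnb2 −0.19. Among members with 4 or 5 markers Bmx had 114 CPM in Control against 34.5 CPM in Dach1OE, a ratio of −1.72 (−2.07 to −1.37), and Efnb2 had −0.73. With equal weights of the marker numbers the list's median was 0.07, and Gja4, Hey1 and Hey2 had 0.92, 1.10 and 2.28. Cells with 4 or 5 markers alone gave a list median of −0.07. At like marker number, arterial genes outside the rule were in part higher and in part lower. The marker number comes from the rule's own genes, whose shares differed between the libraries, so these classes need not hold like cells.

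Hey1 and Hey2 were also the only 2 of 12 Notch pathway genes called, and the median of that list was 0.43, or 0.24 with equal weights. The ligand Dll4 had a ratio of 0.43 (0.32 to 0.53), which was 0.00 with 4 or 5 markers. Jag1 had 77.6 and 144 CPM, a ratio of 0.89 (0.71 to 1.07), and 0.42 with equal weights. The receptors Notch1 and Notch4 had 0.16 and 0.18. Hes1, a Notch target found in many cell types, had 203 and 133 CPM, a ratio of −0.61 (−0.74 to −0.48), and Lfng, which glycosylates Notch receptors, had −0.55.

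Elastic fibre genes went both ways, with 2 of 16 called higher and 3 lower. Their median was −0.28, but its sign was not stable. It was 0.28 in cells with Y-linked UMIs, −0.64 in cells with Xist, 0.22 with 4 or 5 markers and −0.17 with equal weights. Eln (chromosome 5, 134702593 to 134747323, minus strand) had 3436 UMIs in Control and 20050 in Dach1OE, or 847 and 2388 CPM, a ratio of 1.5 (1.44 to 1.55). Its ratio depended on the marker number, at −0.39 with 2 markers, 0.99 with 3 and 2.15 (2.06 to 2.24) with 4 or 5, where the levels were 857 and 3799 CPM. Fbln5 had 394 and 833 CPM, a ratio of 1.08 (1.0 to 1.16), which equal weights brought to 0.51. In the other ECs Fbln5 was lower in Dach1OE, at 101 and 48.3 CPM, and the difference of the ratios was 2.14 (2.03 to 2.25). Called lower were the microfibril genes Mfap2 (−1.45) and Mfap4 (−2.56) and the cross-linking enzyme Loxl1 (−1.67). Their levels in Dach1OE were 10.4, 3.10 and 7.03 CPM. The call of Mfap4 rested on 1 Control cell, and its ratio was 0.27 (−0.97 to 1.66) without the cell with most of its UMIs in each library. In cells with Y-linked UMIs Mfap2 and Loxl1 had 0.01 and 0.13, so they were not lower in both sexes.

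None of the 13 basement membrane genes and none of the 10 flow and caveolae genes were called. For so few genes this is near the 2.12% higher and 2.65% lower of all genes. The basement membrane median was −0.25, or −0.13 with equal weights. Col15a1 had 647 and 376 CPM, a ratio of −0.78 (−0.86 to −0.71), which was 0.13 with 2 markers and −1.81 with 4 or 5. Nid1, a linker of laminin and collagen, had −0.58, and Sparc, a collagen-binding glycoprotein, had −0.38. Lama5, Col18a1 and Lamb2 went the other way, at 0.33, 0.22 and 0.20. For flow and caveolae the median was −0.04, or −0.06 with equal weights. Ehd4, which shapes caveolae, had −0.87, Cavin1 had 0.46 and Cav1 0.45. Of 8 coagulation genes 1 was called higher and 1 lower, with a median of −0.53, or −0.36 with equal weights. Vwf, a carrier of clotting factor that binds platelets, was the higher one. It had 116 and 371 CPM, a ratio of 1.67 (1.53 to 1.82), and its ratio was 0.82 with 2 markers and 3.33 with 4 or 5. The anticoagulant genes Tfpi and Thbd had −0.86 and −0.77.

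For genes of other vessels most ratios were not called, though a larger share was lower than the 2.65% of all genes. Of 14 sinusoidal and venous genes 5 were called lower and 1 higher, with a median of −0.89, and of −0.62 with equal weights. Only Mrc1 of these was at least 2-fold lower in both sexes, and none was 2-fold higher in both. Nr2f2 had 264 and 116 CPM, a ratio of −1.18 (−1.31 to −1.06), and −0.73 with equal weights. Mrc1, the mannose receptor, had −1.47, Il6st −1.16, Cxadr −1.16 and Stab2 −1.10. With 4 or 5 markers the ratio of Il6st was 0.00. The other ECs gave a median of −0.82 over the same list. Madcam1, an adhesion molecule for lymphocytes, was higher, with 5 and 50 UMIs. Of 8 type H genes 3 were called lower and none higher, with a median of −0.63, and of −0.24 with equal weights. These were Esm1, a proteoglycan of sprouting endothelium, with 83.3 and 25.4 CPM and a ratio of −1.71 (−1.97 to −1.46), Piezo2 with −1.68 and Ramp3 with −1.53. All 3 were at least 2-fold lower in both sexes. Aplnr had 346 and 202 CPM, a ratio of −0.78 (−0.88 to −0.67), which was −0.28 with equal weights. Pgf went against the list, at 0.67, and was not called.

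The list of type R capillaries and their secreted factors had 3 genes called higher and 1 lower of 11, with a median of 0.31, or 0.12 with equal weights. Car4 is given above. Sema7a, a membrane-anchored semaphorin, had 330 and 965 CPM, a ratio of 1.55 (1.46 to 1.63), against 38 and 202 CPM in the other ECs. Aqp7, a glycerol channel, had 6 and 78 UMIs, with a ratio of 2.65 (1.46 to 4.14), and Fmo2, a monooxygenase, had −1.80. Bmp6 and C1qtnf9 were lower without a call, at −0.84 and −0.74. The sign of C1qtnf9 held in 15 of 20 processing alternatives. Cxcl12, a chemokine for blood stem cells that arterioles supply, had 1475 and 1826 CPM, a ratio of 0.31, while in the other ECs it went from 874 to 481 CPM. Of 10 fatty acid uptake genes 3 were called lower and 2 higher, with a median of −0.91, or −0.59 with equal weights. Cd36, Lpl (−1.21) and the transcription factor Meox2 (−1.44) were lower, whereas Tcf15, the partner of Meox2 in endothelial fatty acid uptake, had 23.7 and 71.0 CPM, a ratio of 1.59 (1.27 to 1.91). Aqp7 is also on this list.

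**Figure D5:**
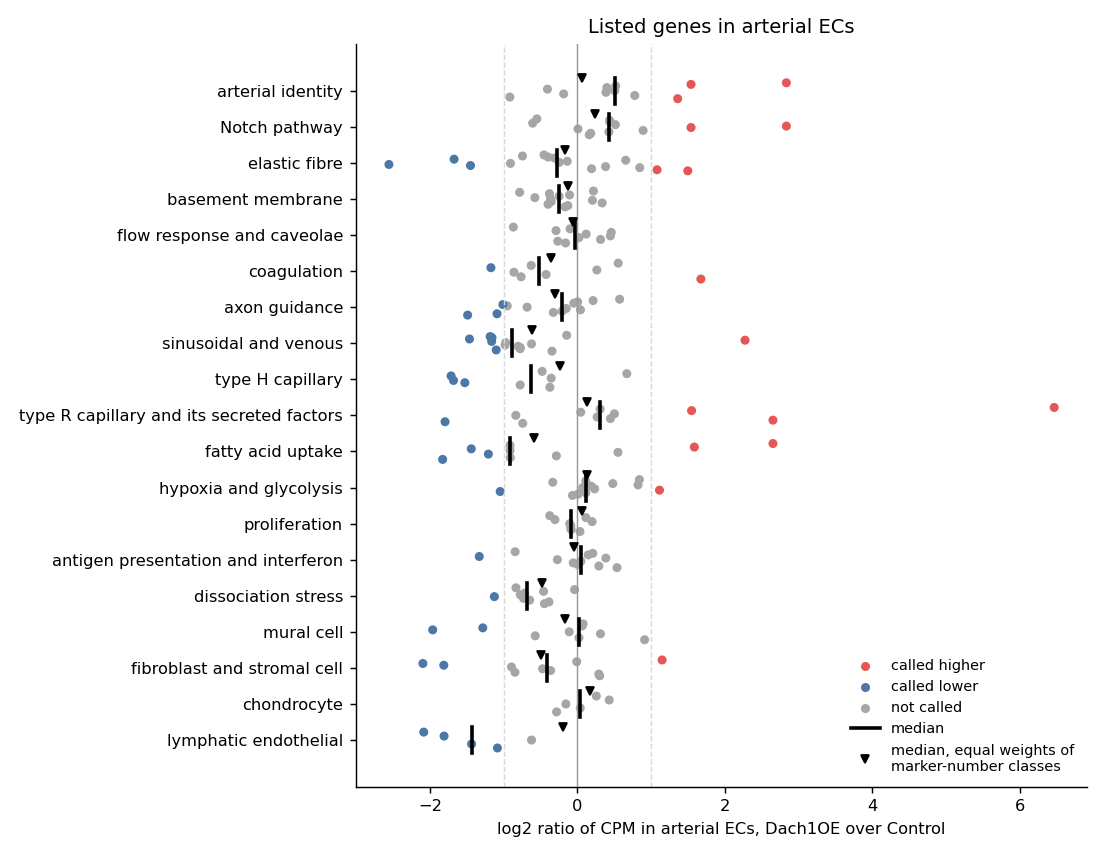
The log2 ratio of CPM in arterial ECs, Dach1OE over Control, for each gene of 19 lists (points, red where called higher, blue where called lower, grey where not called), with the list median as a bar and its median with equal weights of marker numbers as a triangle. Dashed lines mark 2-fold. The arterial identity median stands at 0.51 and moves to 0.07 with equal weights, and the sinusoidal and venous median stands at −0.89.

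Markers of other cell types were present in the members and are given beside these results. The 11 mural cell genes summed to 900 CPM in Control and 794 CPM in Dach1OE arterial ECs, against 1748 and 1478 CPM in the other ECs. Acta2, the actin of smooth muscle, was found in 2.97% of Control and 4.06% of Dach1OE members at 1000 UMIs, and in 3.75% and 5.68% of chondrocyte-type cells. The 10 stromal genes summed to 10038.5 CPM in Control and 11761 CPM in Dach1OE members, against 13605 and 19767 CPM in the other ECs. Col1a1 was found at 1000 UMIs in 49.1% and 60.8% of members, and in 54.1% and 57.9% of chondrocyte-type cells. These shares in members lay near those of the chondrocyte-type cells. Of 10 stromal genes 2 were called lower (Adipoq and Lepr, at −2.10 and −1.81) and Ibsp higher at 1.15, and of 9 mural genes Kcnj8 and Abcc9 were lower, which sinusoidal ECs also express. The 5 chondrocyte genes had a median of 0.04 and no call. The 5 lymphatic genes summed to 209 CPM in Control and 65.5 CPM in Dach1OE members, against 236 and 84.4 CPM in the other ECs. Of these genes Lyve1 and Ccl21a were called higher in arterial than in other ECs of both libraries, at 2.02 and 2.18 for Lyve1 and 2.37 and 1.60 for Ccl21a, while Mmrn1 was lower in both. The list summed to 387, 39.2 and 12 CPM in Control members with 2, with 3 and with 4 or 5 markers. In Dach1OE the same classes had 75.9, 202 and 12.3 CPM. Of the 5 genes 4 were called lower in Dach1OE than in Control. Prox1, which defines lymphatic endothelium, had 39 and 38 UMIs. Of 8 haematopoietic genes S100a8 and S100a9 were lower and Laptm5 higher at 1.48, the S100a8 UMIs of Control lying to 98.6% in 1 cell. Neither S100a8 nor S100a9 was called without the cell with most of its UMIs in each library. The part of these transcripts in the results above was not tested.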

How the data were processed

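Bone cells of a Control and a Dach1OE library were profiled on the BD Rhapsody platform. The authors' pipeline deposited counts of reads and UMIs per cell and gene. The file headers name version 1.11 of the BD Rhapsody WTA Analysis Pipeline, the GENCODE vM19 annotation on GRCm38 and the counting of intronic reads. Whether counting used strand is not given in the sources used here. UMI counts after error correction were used. Reads per UMI were 1.51 in Control and 1.45 in Dach1OE, and the gene and mitochondrial limits kept 26466 and 29317 cells.

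Members and gene lists were chosen with earlier results of these data known. UMIs were summed over the cells of a set and given as CPM with exact Poisson intervals. Log2 ratios have exact conditional binomial 95% intervals, shares have exact Clopper-Pearson intervals, and differences of shares have Newcombe intervals. A set at 0 was given 3 counts. Calls needed a 2-fold difference, an interval without 0 and at least 50 UMIs. Intervals cover counting error only, and with 1 library per group no test of the groups was made. The calling step was tested on simulated counts.

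Of the other ECs, those with sinusoidal genes held at least 2 of Stab2, Flt4 and Gpr182, type R-gene ECs held at least 2 of Edn1, C1qtnf9, Aqp7, Fmo2 and Ntf3, and cells with both were in neither set. Chondrocyte-type cells held at least 2 of Acan, Col2a1, Col9a1 and Matn1 and no endothelial gene of the rule. For shares of cells with a UMI, each cell was thinned to 1000 UMIs. Of a list the text names some genes with large ratios and some against its direction, up to 6 by size of ratio, but not every such gene. It also names 15 higher and 15 lower Dach1OE genes called and 2-fold in both sexes, ranked by interval bound. From arterial over other ECs it names 15 higher and 10 lower genes. A few genes of these rules are not reported here, though list counts and medians include them. Gene positions are from GENCODE vM21 on GRCm38. Tools were Python 3.11.15, scipy 1.17.1, scanpy 1.11.5 with Scrublet, and edgeR 4.0.16 in R 4.3.3 for TMM factors only.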

Additional observations from a re-analysis of the deposited data

Results flagged for a closer look

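For 13 genes of the lists, the Dach1OE over Control log2 ratio in arterial ECs had opposite signs in cells with Y-linked UMIs and in cells with Xist, with at least 50 UMIs and a 95% counting interval that excluded 0 in each, which is what marked them. The difference between the sexes was not tested, and the number of genes with enough UMIs in both was not counted. The 5 cells with most UMIs of a gene held from 3.85% (B2m) to 75.6% (Ccl21a) of its Control UMIs. For Bglap, Col10a1, Col3a1 and Hba-a1 they held 56.5%, 73.5%, 50.8% and 63.0%. The intervals do not cover such spread between cells. Genes of matrix-forming and cartilage cells made up 7 of the 13. These were Bglap at 1.84 and −0.336, Col3a1 at 0.643 and −1.84, Dcn at 1.28 and −0.908, Lum at 0.70 and −1.16, Col10a1 at 0.783 and −0.494, Col2a1 at 0.106 and −0.376, and Matn1 at 0.393 and −0.555. The red cell genes Hba-a1 and Hbb-bs had 2.85 and −0.704, and 2.61 and −1.28. The lymphatic genes Ccl21a and Lyve1 had 4.51 and −2.67, and 3.01 and −1.87, and their UMIs came from few cells, 13 Control and 5 Dach1OE cells for Ccl21a. B2m, a subunit of class I antigen presentation, had −0.178 and 0.178. Top2a, a topoisomerase of dividing cells, had 0.660 and −0.417.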

How the results depend on the processing

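With 1 library per group, no library could be left out and nothing bounds the spread between mice. No paired analysis was possible because each group has 1 library and no test was made. The share of arterial ECs was higher in Dach1OE by 6.62 points with the rule at 1000 UMIs per cell, 10.5 in cells with Y-linked UMIs, 6.61 in cells with Xist, 6.94 without Gja5 in the rule, 5.60 without cells holding a lymphatic UMI and 0.669 (−4.30 to 5.55) without cells holding 2 or more mural or stromal UMIs. The last setting removed most members and left 105 and 134. It left 2320 genes, of which 77 were higher and 62 lower in Dach1OE, and gave 199 higher and 277 lower genes of arterial against other ECs in Control and 249 and 382 in Dach1OE. Other counts that moved by over 1.5 times were 1286 genes lower in Dach1OE arterial than other ECs at 1000 UMIs, 588 genes lower in Dach1OE arterial ECs with no minimum of UMIs over 21727 genes, and 382 higher among cells with 4 or 5 markers. The counts of 1286 and 382 are given without their shares of the genes compared. The smaller gene numbers tested go with fewer cells, and the cause of the other moves was not tested. Of 189 genes followed over the alternatives that choose cells or scaling for all genes alike, 63 changed sign under at least 1. Of these only Il6st had been called, and it went to 0.00103 in cells with 4 or 5 markers, while Stab1, Tfpi and Fabp4, which were not called, reached 0.62, 0.18 and 0.19. Alternatives that left a gene under 50 UMIs are not in this count. There other called genes changed sign too, such as Mfap2, Loxl1 and Slit2, at 0.01, 0.13 and 0.54 in cells with Y-linked UMIs. Lists of other cell types were not followed gene by gene, apart from genes named by the rule. Of these lists Lyve1 and Ccl21a, called lower, had 3.01 and 4.51 in cells with Y-linked UMIs. Cells with 2 or with 3 markers alone were no alternative here, and Eln was lower in Dach1OE with 2, as given above. Leaving out the cell with most UMIs of a gene in each library, chosen after seeing the data, ended 5 of 74 calls, those of Atf3, Sema3c, S100a8, S100a9 and Mfap4, and turned that of Mfap4 to 0.27. Sizes moved also where signs did not, for H19 from 2.62 to 7.17, for Alox12e from 3.30 to 8.80 and for Kcnj8 from −2.88 to −0.17. Of 3716 values of single genes, 2713 stayed within the counting interval. The median of the arterial identity list ranged from −0.07 to 0.54 and kept its sign in 20 of 21 alternatives, and that of elastic fibre genes ranged from −0.42 to 0.65 and kept it in 15 of 20. TMM scaling shifted all ratios by 0.033. The weights and the settings without lymphatic cells, without cells with 1% or more mural or stromal UMIs, and with 4 or 5 markers only were chosen after seeing the data.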

Other observations

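The lists of hypoxia, proliferation, antigen presentation, axon guidance and dissociation stress were also counted in arterial ECs, Dach1OE over Control. Of 13 hypoxia and glycolysis genes 1 was called higher and 1 lower, with a median log2 ratio of 0.11. Vegfa, the main endothelial growth factor, had 28.1 and 60.7 CPM, a log2 ratio with an interval of 0.82 to 1.42, and Angptl4, an inhibitor of lipoprotein lipase, had −1.05. None of 9 proliferation genes was called, and Mki67 had 64.8 and 66.3 CPM. Of 11 antigen presentation and interferon genes Ifit3 was called lower, at −1.33, while H2-K1 had 0.54.

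Of 13 axon guidance genes 3 were called lower, the semaphorins Sema3a and Sema3c at −1.49 and −1.09 and Slit2 at −1.01, the last with 0.54 in cells with Y-linked UMIs. Robo4, an endothelial guidance receptor, had 208 and 107 CPM, a ratio of −0.95. Of 10 dissociation stress genes, immediate early genes that tissue digestion induces, Atf3 was called lower at −1.13. Without the cell with most UMIs of the gene in each library, Atf3 had −0.92 and Sema3c −0.998, and neither was called. The median of that list was −0.68 in arterial and −0.09 in other ECs. The part of digestion in the other results was not tested.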
